A study of Mus musculus with 28 samples.

Results

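Muscle was compared with white adipose tissue over all genes of a whole-genome mouse array, from the 3 arrays titled muscle and the 3 titled white adipose tissue. These are 6 of the 28 arrays of a series on liver cells and liver cultures, in which wildtype tissues were profiled to set the cultures against their parental and other tissues. Both tissues came from C57BL/6 wildtype mice, and the labels name no allele, transgene or treatment for either. The label says only "muscle": it names no muscle, no fat depot, no age and no sex, and it does not say whether a replicate was 1 animal or a pool. The replicates are called biological, and nothing says that they came from separate animals, so the spread between them may be partly technical. The p-values measure differences against a spread pooled over all 28 arrays of the series, not that of these 6 alone. The 3 brown adipose tissue arrays of the same strain serve below as a second fat tissue.

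Skeletal muscle consists of long multinucleate fibres packed with sarcomeres, in which myosin and actin filaments slide past each other when calcium leaves the sarcoplasmic reticulum. Fast and slow fibres, and fibres of the growing animal, carry different isoforms of the same sarcomere proteins, and fibres burn glycogen and fatty acids for work. White adipocytes take up and synthesize fatty acids, store them as triglyceride in a large lipid droplet, release them by lipolysis when catecholamines rise, and secrete hormones such as leptin and adiponectin.

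Each array carried sample RNA in Cy3 beside a commercial mouse reference RNA in Cy5. The values below are log2 ratios of Cy3 over Cy5 unless "Cy3 alone" is written, which is the log2 sample signal set to a common distribution over arrays. A difference is muscle minus white adipose, with the standard error of a linear model over all 28 arrays. The model pools the spread over all groups, so the error can be too small where 1 group spreads more. At the muscle gene Eno3 the SD was 2.62 over the white adipose arrays and 0.10 over the muscle arrays, beside a standard error of 0.80. A gene was called when its Benjamini-Hochberg adjusted p from limma was under 0.05 and its difference was at least 1 in size, and a gene was represented by 1 probe. Between 40.3% and 59.9% of probes were well above background in Cy3 on the 6 arrays. Over genes, the ratios correlated at 0.92 to 0.96 within muscle, at 0.89 to 0.93 within white adipose tissue and at 0.66 to 0.83 between them.

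The 4 genes that mark the tissues showed 3 features of these arrays that touch the results below. Acta1 encodes skeletal alpha-actin and was measured by a probe at chr8:126416197-126416256 (mm9, as are all probe positions). Its ratios were 5.58, 5.61 and 5.69 on the muscle arrays and 5.49, 2.49 and 4.87 on the white adipose arrays, a difference of 1.34 (SE 0.71) that was not called (adjusted p = 0.188). By Cy3 alone the same spots read 17.96, 17.96 and 17.96 against 17.18, 11.14 and 15.60, a difference of 3.32 (adjusted p = 0.0485). Equal ranks get equal values on this scale, so the 3 muscle values carry no measured spread. White adipose array 2 was the lowest on both scales, and arrays 1 and 3 lay nearer to muscle. The ratio difference rested on array 2: it was 0.45 without that array (adjusted p = 0.714), 3.14 without arrays 1 and 3 (adjusted p = 0.0157) and 0.20 with the arrays' slide as a term in the model (adjusted p = 0.934).

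Ckm, the creatine kinase of muscle fibres, was measured at chr7:20002222-20004829, with ratios of 5.26, 5.57 and 5.22 in muscle and 5.66, 1.26 and 5.01 in white adipose tissue. The groups overlapped, and the difference of 1.38 (SE 0.74) was not called (adjusted p = 0.197). Cy3 alone gave 15.08, 14.52 and 15.61 against 12.68, 7.12 and 10.80, which did not overlap, with a difference of 4.87 (adjusted p = 0.000804). Without white adipose array 2 the ratio difference was 0.02 (adjusted p = 0.988), and with slide as a term it was -0.44 (adjusted p = 0.905). It passed the threshold without array 1, at 2.22 (adjusted p = 0.0335), and without arrays 1 and 3, at 4.09 (adjusted p = 7.74e-05).

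Adipoq, the gene of adiponectin, was measured at chr16:23157576-23157635. Its ratios were 5.90, 5.36 and 5.62 in muscle and 6.43, 6.53 and 6.05 in white adipose tissue, a difference of -0.71 (SE 0.46) that was not called (adjusted p = 0.293). Its Cy3 signals were 13.25, 10.95 and 11.51 in muscle and 16.56, 16.80 and 16.88 in white adipose tissue, a difference of -4.85 (adjusted p = 1.51e-06). All 3 white adipose arrays were higher on both scales, by far more without the reference.

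Lep, which encodes leptin, was measured at chr6:29023234-29023293 and was well above background on 0 of 3 muscle arrays and on all 3 white adipose arrays. Its ratios were 0.35, 0.21 and 0.14 in muscle and 1.49, 1.60 and 1.76 in white adipose tissue, at least 2.24-fold higher in white adipose tissue (adjusted p = 3.44e-08). An "at least" fold sets the bright group against the higher of the dim probe's own signal and the lowest signal well above background on that array. Both are Cy3 signals rebuilt from the normalized ratio and the mean intensity of both channels. The fold is a bound on that scale only. Cy3 alone gave smaller folds for genes that include Lep, Snorc, Mmp13, Ibsp, Bglap, Ces1d, Chrnd, Chrne and Acsl6. By Cy3 alone the Lep difference of -0.89 (adjusted p = 7.66e-06) fell short of the size required for a call.

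**Figure D1:**
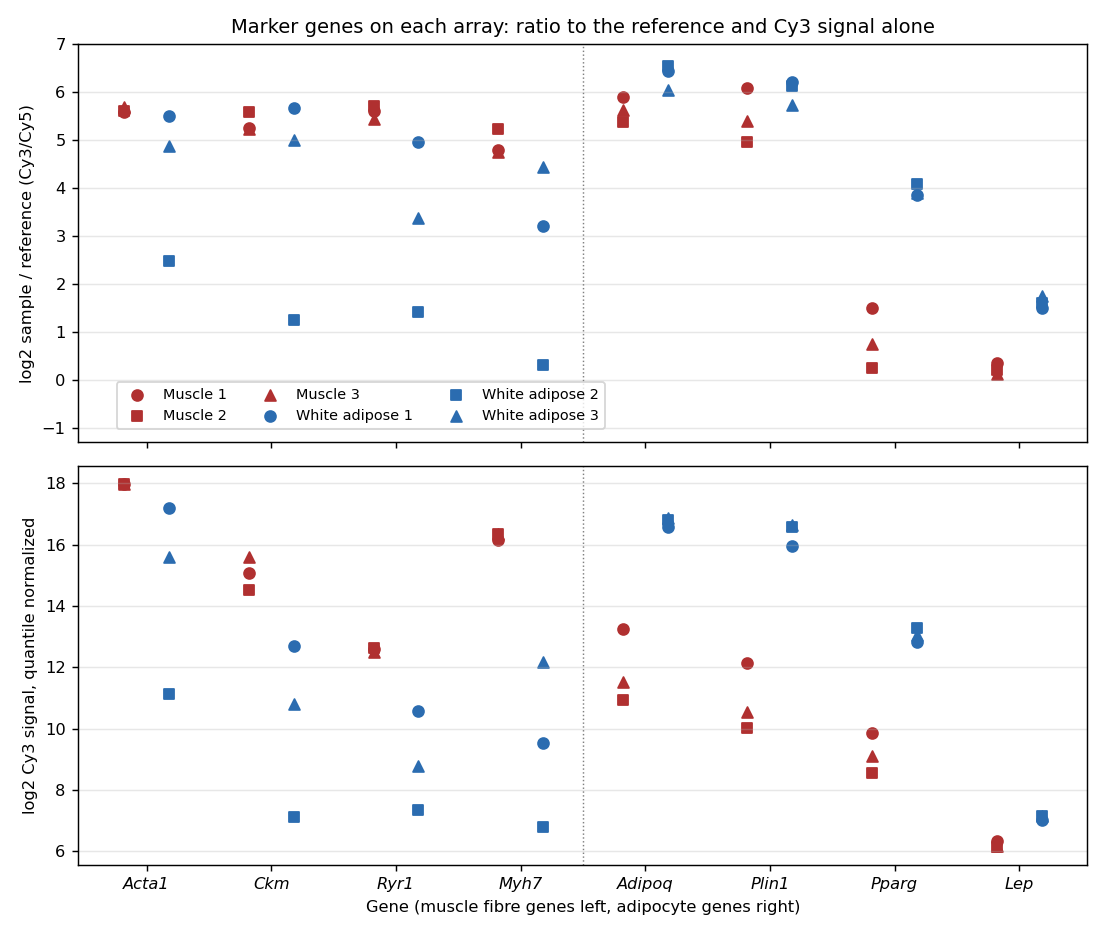
Log2 ratio to the reference (top) and log2 Cy3 signal alone (bottom) of 8 genes on each muscle (red) and white adipose (blue) array, with a symbol per replicate. Ckm overlapped between the groups by ratio and not by Cy3 alone, and Lep was low on the 3 muscle arrays and higher on the 3 white adipose arrays on both scales.

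The first feature was that the reference channel, the same RNA on every array, was not level at bright probes. At the Adipoq probe the corrected Cy5 signals were 8.79, 7.39 and 7.69 on the muscle arrays and 11.17, 11.20 and 11.90 on the white adipose arrays, and at the Ckm probe 11.05, 10.19 and 11.54 against 8.49, 6.59 and 7.53. Of 93 genes with a Cy3-alone difference of at least 4, 66 had a reference signal at least 1 log2 unit higher on the muscle arrays. Of 32 genes with a difference of -4 or below, 15 had a reference signal at least 1 lower. For most of these genes the difference in ratio was smaller in size than that in Cy3. Where a ratio difference printed below comes from a probe whose reference signal differed by at least 1, the Cy3-alone difference stands beside it or where the gene was first described. Why the reference moved was not tested.

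The other features concern the samples. White adipose arrays 1 and 3 carried transcripts of muscle fibres: the mean ratio over the 15 fibre markers tested was 5.08, 5.15 and 5.13 on the muscle arrays, 4.24, 1.13 and 3.72 on the white adipose arrays, and 3.75, 3.66 and 2.60 on the brown adipose arrays. By Cy3 alone this mean was 14.14, 14.04 and 14.44 on the muscle arrays and 12.10, 8.01 and 11.08 on the white adipose arrays. All 15 fibre markers were well above background on at least 1 white adipose array and 12 on all 3. Muscle in turn carried adipocyte transcripts. The mean of the 15 white adipocyte markers tested was 3.96, 3.28 and 3.56 in muscle against 5.24, 5.35 and 5.08 in white adipose tissue, and 13 were above background on all 3 muscle arrays, Lep being on none. By Cy3 alone the adipocyte mean was 11.46, 10.27 and 10.59 against 14.09, 14.29 and 14.13, so the tissues lay further apart than by ratio. The reference signal differed by at least 1 at 12 of the fibre probes and 8 of the adipocyte probes. In tissue RNA, fewer cells of a type and less RNA per cell cannot be told apart. Results that rest on these arrays are given below also without white adipose arrays 1 and 3, which leaves array 2 to stand for the tissue with an assumed spread like that of the other groups.

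The muscle arrays carried the markers of skeletal fibres: all 15 fibre markers were above background on all 3 muscle arrays. Of 10 cardiac markers tested, 4 were higher in muscle, which were Tnnt2, Myh6, Actc1 and Myl4, and 0 with slide as a term. The heart genes Nkx2-5, Gata4, Nppb and Myl7 were above background on 0 muscle arrays, while Nppa was above background on all 3 with a difference of -0.07 (SE 0.19). Among brown adipocyte markers, Ucp1, the uncoupling protein of brown fat, read 1.81, 0.42 and 0.01 in muscle, 5.74, 3.03 and 0.31 in white adipose tissue and 5.37, 5.04 and 5.24 in brown adipose tissue. By ratio, white adipose array 1 was above all 3 brown adipose arrays, and array 3 lay within the range of muscle. The reference signal at this probe was itself uneven, at 7.34, 6.41 and 6.17 on the white adipose arrays. Cy3 alone is not given here for brown adipose tissue, so which tissue held more Ucp1 transcript is not shown.

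Of 21070 genes tested, 2558 were called (12.1%). Of these, 1410 were higher in muscle (6.69%) and 1148 higher in white adipose tissue (5.45%), and the median difference over all genes was -0.02. The arrays of the groups did not overlap for 2534 of the called genes, against 44.2% of all genes tested. Differences of at least 2 were called for 492 genes in muscle and 262 in white adipose tissue, and of at least 4 for 38 and 12. For 355 called genes the lower group was above background on no array. Among the called genes described below, another probe of the same gene differed by less than 1 in size for Myh2 (0.49), Cacna1s (0.91), Chrne (0.23), Klf5 (0.23), Prox1 (0.37), Cav1 (-0.28), Acaca (-0.40), Tbc1d4 (-0.61) and Lhx8 (-0.57), and for Asph, Ryr1, Capn3, Pygl, Igf1 and Col2a1, whose values follow.

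By Cy3 alone, 987 genes were higher in muscle and 908 higher in white adipose tissue. Leaving out white adipose arrays 1 and 3 gave 1545 and 1262. Muscle arrays 1 and 2 shared a slide, as did white adipose arrays 2 and 3, and muscle array 3 shared a slide with white adipose array 1. On that shared slide 2549 of 2555 called genes kept their sign, which is fixed for genes whose arrays do not overlap; of the 24 that overlapped, 18 kept it. With slide as a term in the model, 371 genes were called higher in muscle and 407 in white adipose tissue, and the contrast then rests on that slide, which holds the white adipose array with the most fibre transcript.

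**Figure D2:**
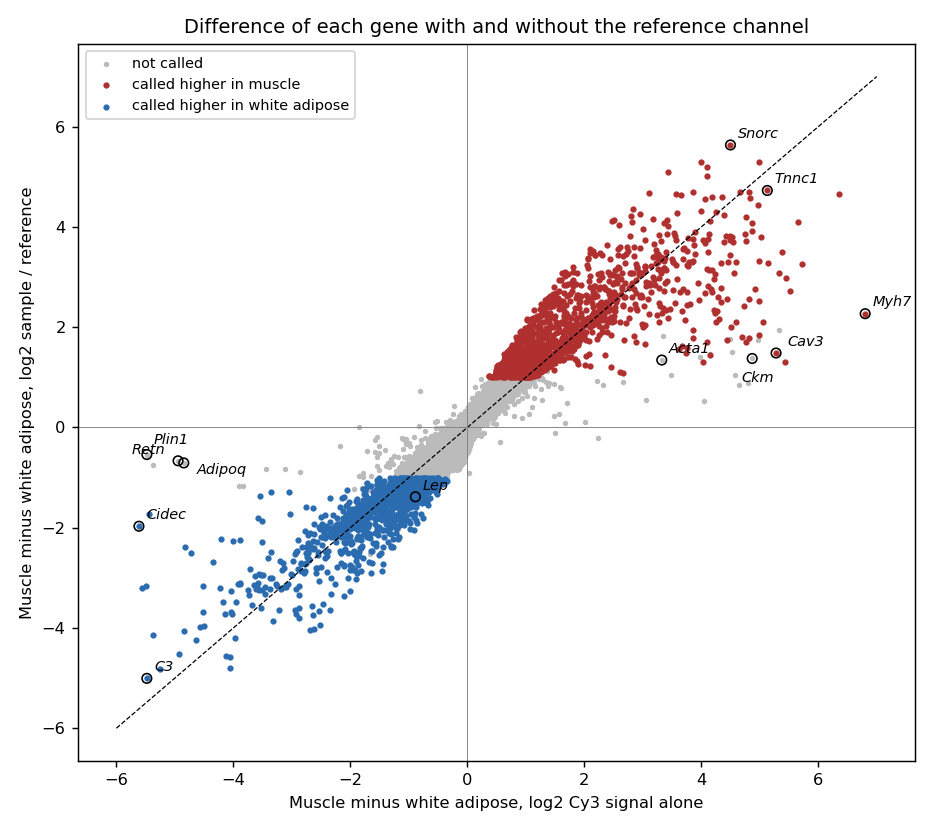
Difference between muscle and white adipose tissue for each gene tested, by Cy3 signal alone (horizontal, log2) and by ratio to the reference (vertical, log2), with called genes in colour and equality dashed. Ckm and Adipoq lie far along the horizontal axis (4.87 and -4.85) and close to 0 on the vertical one (1.38 and -0.71), while Snorc and C3 are large on both.

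By ratio, with undetected genes entered at their measured values, the 10 largest differences in favour of muscle fell on sarcomere, synapse and skeletal matrix genes. By Cy3 alone the order was another: Myh7 (6.80) and Col2a1 (6.36) were above Snorc (4.50), the largest by ratio. Snorc, a proteoglycan of cartilage, read 3.95, 5.02 and 5.08 in muscle and -1.17, -0.58 and -1.10 in white adipose tissue, where no array was above background, and was at least 37.1-fold higher in muscle (adjusted p = 2.07e-11). Spp1, the gene of osteopontin, read -3.40, -3.15 and -2.62 against -8.54, -8.02 and -8.52, a difference of 5.30 (SE 0.35, adjusted p = 1.28e-09). Mylk4, a myosin light chain kinase, read 6.65, 6.89 and 6.58 against 2.56, 0.21 and 1.46, a difference of 5.29 (SE 0.55, adjusted p = 3.75e-07). Snorc and Spp1 were low on all 3 white adipose arrays, whereas for Mylk4 white adipose arrays 1 and 3 lay above array 2.

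Mmp13, the collagenase of bone and cartilage, was at least 24.7-fold higher in muscle, and Ibsp, bone sialoprotein, at least 18.2-fold. Tnmd, a membrane protein of tendon, differed by 5.02 (SE 0.39) and Kera, keratocan, by 4.70 (SE 0.30). The others of the 10 largest were Tnnc1, the slow and cardiac troponin C, at 4.73 (SE 0.62), and 2 subunits of the acetylcholine receptor, Chrna1 at 4.70 (SE 0.70) and Chrng at 4.69 (SE 0.59). All 10 were called without each array in turn, and their groups did not overlap. Tnnc1, Chrna1 and Chrng were not called with slide as a term, and Kera was not called on Agilent's own log ratios (2.53, adjusted p = 0.0693).

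By ratio the largest differences in favour of white adipose tissue were in C3, the central complement component, and Acvr1c, a receptor of the activin and Gdf family. By Cy3 alone C3 differed by -5.48 and Acvr1c by -4.06, while the droplet genes Cidec (-5.61) and Plin1 (-5.48) were as large as C3 or larger. C3 read -0.74, -2.50 and -1.92 in muscle and 3.01, 3.33 and 3.52 in white adipose tissue, a difference of -5.01 (SE 0.38, adjusted p = 7.30e-09). Acvr1c read 3.21, 1.29 and 1.91 against 6.99, 7.10 and 6.73, a difference of -4.80 (SE 0.29, adjusted p = 4.78e-10). Brown adipose tissue read 0.72, 0.85 and 0.82 for C3 and 6.69, 6.83 and 6.64 for Acvr1c, so its C3 lay between the other tissues and its Acvr1c with white adipose tissue.

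Scd1, the desaturase that makes monounsaturated fatty acids, read 1.59, -0.19 and -0.37 in muscle and 4.57, 4.78 and 4.09 in white adipose tissue (difference -4.14, SE 0.43, adjusted p = 3.85e-07). Pcx, pyruvate carboxylase, read 1.99, 0.81 and 0.96 against 5.27, 5.25 and 5.46 (-4.07, SE 0.38, adjusted p = 9.01e-08). Muscle array 1 was the highest muscle array for both, and also for the white adipocyte marker mean. The rest of the 10 were Mup1, a major urinary protein (-4.58, SE 0.69), Unc93a (-4.56, SE 0.50), Pex11a, a peroxisome proliferation factor (-4.25, SE 0.43), Car5b, a mitochondrial carbonic anhydrase (-4.21, SE 0.25), Sec14l4 (-4.04, SE 0.39), and Ces1d, a carboxylesterase that was at least 9.64-fold higher. Urinary proteins form a family of near-identical genes, so the Mup1 probe cannot be assigned to 1 member with certainty. All 10 were called without each array in turn, and Mup1, Unc93a and Sec14l4 were not called with slide as a term.

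Genes of the fibre and isoform lists that passed the test by ratio were all higher in muscle. Of 15 fibre markers, 7 were higher in muscle and 0 higher in white adipose tissue, with a median of 1.82 by ratio and 4.10 by Cy3 alone. Among 14 fast fibre isoforms, 5 were higher in muscle (median 1.69, Cy3 alone 3.58). Of 13 slow fibre isoforms, 11 were higher in muscle (median 2.37, Cy3 alone 4.82). The count of fibre markers was 14 by Cy3 alone, 12 without white adipose array 1 and 14 without arrays 1 and 3, and 0 with slide as a term. The count of fast isoforms was 10 by Cy3 alone, 11 without white adipose array 1 and 12 without arrays 1 and 3, and that of slow isoforms was 12, 12 and 12. By Cy3 alone 1 member of the fast list, Gpd1, the glycerol phosphate dehydrogenase that fat also makes, was higher in white adipose tissue, at -2.85 (adjusted p = 1.57e-06) against -0.88 (SE 0.24) by ratio, and is named after its values were seen. The reference signal differed by at least 1 between the groups at 11 of the 14 fast and 9 of the 13 slow probes.

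Among fast isoforms, Actn3, the alpha-actinin of fast fibres, read 4.78, 4.75 and 5.04 in muscle and 3.35, -1.77 and 1.91 in white adipose tissue, a difference of 3.70 (SE 0.80, adjusted p = 0.00152). The fast myosin Myh2 differed by 3.28 (SE 0.81) by ratio and 4.33 by Cy3 alone, and the fast calcium pump Atp2a1 by 3.16 (SE 0.63) and 4.10. Tnnc2, the fast troponin C, differed by 0.11 (SE 0.55) by ratio and by 2.01 by Cy3 alone, and was not called on either scale. The calcium channel subunit Cacna1s, a marker of all fibres, differed by 3.74 (SE 0.77). White adipose array 2 was the lowest array for all 5, and for Myh2 array 1 lay close to it, at 1.40, 0.80 and 4.98 over the 3 arrays.

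Among slow isoforms, Tnnc1 read 4.73, 4.81 and 4.98 against 0.87, -1.38 and 0.84, and the slow myosin light chain Myl2 5.11, 5.24 and 5.07 against 0.34, 0.01 and 2.79 (4.10, SE 0.57, adjusted p = 1.55e-05, Cy3 alone 5.66). The slow troponin T, Tnnt1, differed by 3.91 (SE 0.67). Myh7, the slow myosin heavy chain, read 4.78, 5.23 and 4.75 against 3.20, 0.30 and 4.45, and 16.15, 16.36 and 16.36 against 9.52, 6.79 and 12.16 by Cy3 alone. Its ratio difference of 2.27 (SE 0.75) was called (adjusted p = 0.0303), but not without any 1 of the muscle arrays or white adipose array 2 (adjusted p = 0.233). Tpm3 (-0.52, SE 0.28) and Myl3 (1.47, SE 0.65, Cy3 alone 4.15) were not called by ratio.

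Isoforms typical of growing or regenerating fibres were present at high signal in muscle. Of 8 tested, 5 were higher in muscle (median 2.11, Cy3 alone 4.66), and 0 of the 8 with slide as a term. Actc1, the cardiac alpha-actin that fibres also make before birth, read 4.82, 4.95 and 4.95 in muscle and 3.18, -0.23 and 1.27 in white adipose tissue, a difference of 3.50 (SE 0.58, adjusted p = 0.000111), or 5.37 by Cy3 alone. Tnnt2, the troponin T of heart and embryonic fibres, read 3.81, 4.05 and 3.92 against 1.73, -1.87 and 0.51 (3.80, SE 0.67, adjusted p = 0.000201, Cy3 alone 5.02). The embryonic and perinatal myosins were not called by ratio, Myh3 at 0.84 (SE 0.36) and Myh8 at -0.21 (SE 0.46), while their Cy3 signals in muscle were 16.98, 17.02 and 16.88 and 17.49, 17.85 and 17.49. Cy3 alone gave a difference of 4.65 for Myh3 (adjusted p = 0.00254) and 2.23 for Myh8 (adjusted p = 0.182).

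The proximal promoters of the skeletal and the cardiac actin gene, both bright in muscle, are shown because each holds a CArG box, the site bound by serum response factor, in capitals. They cover the 250 bases before the annotated start, from RefSeq on GRCm38.p6: Acta1 at chr8:123894776-123895025 and Actc1 at chr2:114052876-114053125, both on the minus strand and written 5′ to 3′.
Acta1: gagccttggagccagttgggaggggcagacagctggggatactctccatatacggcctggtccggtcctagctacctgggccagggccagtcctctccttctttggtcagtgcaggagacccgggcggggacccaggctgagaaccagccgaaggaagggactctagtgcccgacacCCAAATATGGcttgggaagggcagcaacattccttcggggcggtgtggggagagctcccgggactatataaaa
Actc1: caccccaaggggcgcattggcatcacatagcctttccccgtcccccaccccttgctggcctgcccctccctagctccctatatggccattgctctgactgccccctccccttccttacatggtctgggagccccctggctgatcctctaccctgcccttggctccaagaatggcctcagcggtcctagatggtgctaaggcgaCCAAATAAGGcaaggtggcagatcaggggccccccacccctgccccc
The box begins 73 bases before the start in Acta1 and 47 in Actc1. A CArG box on either strand was found in 1.47% of 32851 promoters of this length, and in 2 of the 12 fibre markers and 1 of the 7 developmental isoforms matched to the table. The Acta1 sequence also holds the E-box CAGCTG described below. These matches are a description and show no binding.

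Of 35 Z-disc, titin and M-band genes tested, 27 were higher in muscle and 0 higher in white adipose tissue, with a median of 2.35 by ratio and 3.73 by Cy3 alone. Klhl41, a kelch protein that stabilizes nebulin, read 5.61, 5.47 and 5.82 in muscle and 3.53, -0.07 and 2.51 in white adipose tissue, a difference of 3.65 (SE 0.60, adjusted p = 9.25e-05), or 3.87 by Cy3 alone. Myot, myotilin, differed by 3.82 (SE 0.99) and Mybph, a myosin-binding protein, by 3.43 (SE 0.77), or 4.49 by Cy3 alone. Ttn, titin, differed by 2.98 (SE 0.82, adjusted p = 0.0103), or 5.45 by Cy3 alone. Unc45b, a myosin chaperone, at 0.28 (SE 0.61), and Myoz3, above background on no array of either group, were not called.

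When same-numbered arrays were taken as pairs, the counts fell from 27 to 15 for Z-disc genes and from 11 to 6 for slow isoforms, and Myot (adjusted p = 0.0607), Ttn (0.0963) and Myh7 (0.118) were no longer called. The slide term left 4 Z-disc genes, 1 slow isoform and 0 fast isoforms called. On Agilent's log ratios 12 Z-disc genes, 6 slow and 2 fast isoforms were called, without Myot, Klhl41, Ttn, Myh7 and Myh2. Without white adipose array 2 the slow count was 7. In the fibre, fast, slow and Z-disc lists, where 0 genes were called higher in white adipose tissue, 1 fast isoform and 1 Z-disc gene had an unadjusted limma p under 0.05 in that direction, and 1 Z-disc gene was called in it without white adipose arrays 1 and 3.

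**Figure D3:**
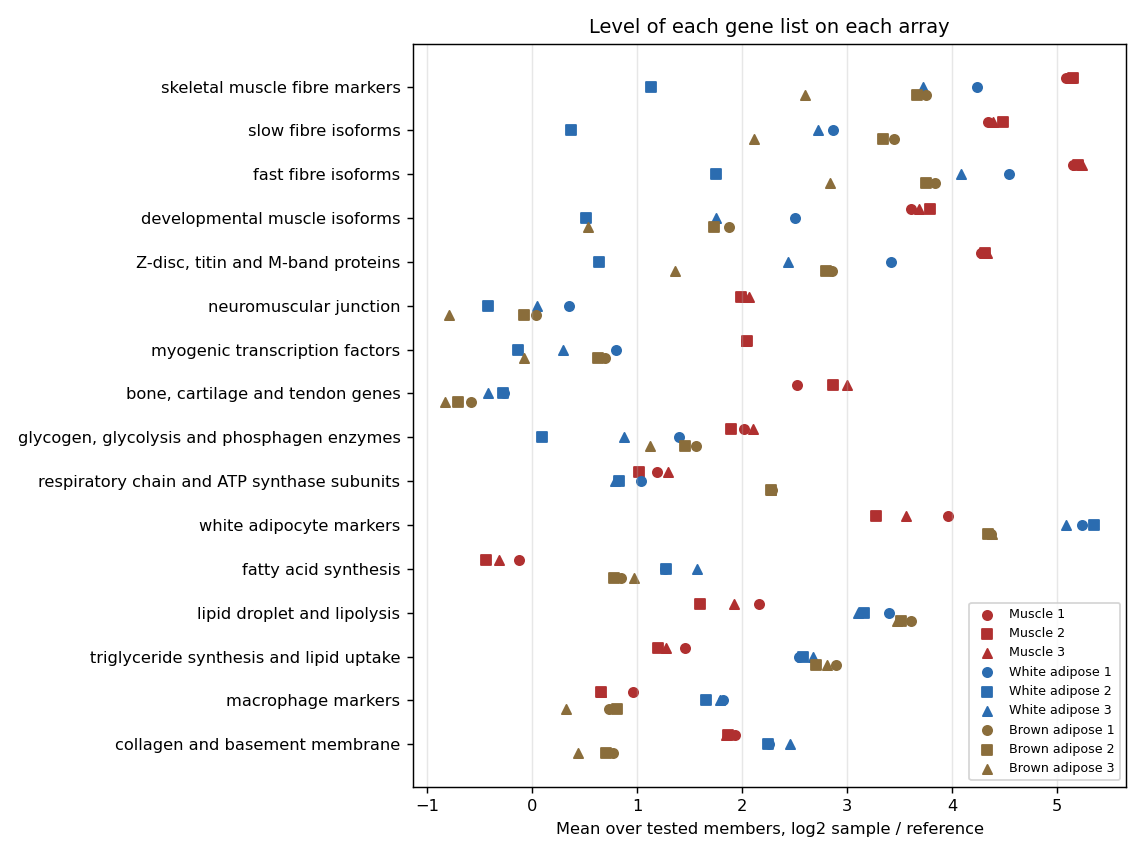
Mean log2 ratio to the reference over the tested members of 16 gene lists, for each muscle (red), white adipose (blue) and brown adipose (brown) array. For the fibre markers white adipose array 2 stands alone at 1.13 while arrays 1 and 3 lie at 4.24 and 3.72, near the brown adipose arrays, and the bone, cartilage and tendon genes are high on the 3 muscle arrays alone among these 9.

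Excitation-contraction coupling and calcium handling showed 20 of 27 genes higher in muscle and 0 higher in white adipose tissue (median 2.33, or 2.15 with genes that a group did not detect set at their bounds). In white adipose tissue 1 gene was higher at an unadjusted limma p under 0.05. Jph1, junctophilin, which tethers the sarcoplasmic reticulum to the surface membrane, read 5.06, 5.12 and 5.24 in muscle and 2.85, -0.10 and 1.48 in white adipose tissue (3.73, SE 0.47, adjusted p = 3.84e-06). Cacna1s, the voltage sensor, differed by 3.74 (SE 0.77) and Asph, whose locus encodes junctin, by 3.51 (SE 0.50), while other Asph probes differed by as little as -0.11. Ryr1, the calcium release channel, read 5.61, 5.71 and 5.43 against 4.96, 1.41 and 3.38 (2.33, SE 0.64, adjusted p = 0.0095, Cy3 alone 3.67). Another Ryr1 probe differed by 0.07. The call was lost without white adipose array 2 (adjusted p = 0.0816), with the arrays paired (0.0589) and on Agilent's log ratios (0.234). Mtm1 (-0.14, SE 0.25) was not called, and with slide as a term 1 gene was.

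The neuromuscular junction had 11 of 14 genes higher in muscle and 0 higher in white adipose tissue, with a median of 2.01, or 1.94 at the bounds. With slide as a term 4 of the 14 were called in muscle, and 1 was called in white adipose tissue without its arrays 1 and 3. Chrna1, the alpha subunit of the acetylcholine receptor, read 4.42, 4.54 and 4.53 in muscle and 1.16, -2.24 and 0.47 in white adipose tissue (adjusted p = 3.50e-05). Chrng, the subunit of the receptor before birth and after denervation, read 5.63, 5.97 and 5.52 against 2.08, -0.59 and 1.55 (adjusted p = 4.49e-06). Chrnb1 differed by 2.99 (SE 0.31), and Chrnd, above background on no white adipose array, was at least 3.41-fold higher (adjusted p = 9.10e-06). Chrne, the subunit that replaces Chrng at the adult junction, was above background on 2 muscle arrays and no white adipose array and was at least 1.69-fold higher (adjusted p = 0.0169). It had no usable spot on white adipose array 1, and its call was lost without muscle array 3, without white adipose array 2 and by Cy3 alone. Etv5 (0.25, SE 0.33) and Nrg1 (-0.27, SE 0.24) were not called.

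Both receptor genes among the 10 largest differences hold the E-box CAGCTG, a site that myogenic factors can bind, and their promoters are shown with it in capitals. They are the 250 bases before the RefSeq start on GRCm38.p6, Chrna1 at chr2:73580339-73580588 on the minus strand and Chrng at chr1:87205561-87205810 on the plus strand.
Chrna1: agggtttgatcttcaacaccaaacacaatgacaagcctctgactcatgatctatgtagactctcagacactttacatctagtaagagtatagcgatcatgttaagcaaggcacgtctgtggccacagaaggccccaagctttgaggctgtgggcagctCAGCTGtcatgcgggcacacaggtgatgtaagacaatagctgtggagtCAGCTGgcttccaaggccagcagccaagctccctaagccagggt
Chrng: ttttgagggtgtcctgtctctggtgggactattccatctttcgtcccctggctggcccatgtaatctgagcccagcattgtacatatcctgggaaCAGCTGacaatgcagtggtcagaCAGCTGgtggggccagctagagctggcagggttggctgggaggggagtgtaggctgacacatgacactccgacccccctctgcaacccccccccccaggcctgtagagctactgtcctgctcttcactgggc
The motif is its own reverse complement. It begins 92 and 44 bases before the start in Chrna1, and 155 and 132 bases before it in Chrng. The Chrna1 sequence also holds the C/EBP site TTNNGCAA described below. The E-box was found in 13.0% of 32851 promoters of this length, in 5 of the 9 junction genes matched to the table and in 7 of the 12 fibre markers matched. No binding was measured.

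Myogenic transcription factors were higher in muscle in 14 of 20 genes and higher in white adipose tissue in 0 (median 1.72). Myf6, the myogenic factor of mature fibres, read 6.52, 6.51 and 6.42 in muscle and 4.16, 0.02 and 2.28 in white adipose tissue (4.33, SE 0.69, adjusted p = 6.56e-05). Myog, myogenin, which drives fusion of myoblasts, read 4.16, 4.36 and 4.27 against 2.67, -1.15 and 1.34 (3.31, SE 0.64, adjusted p = 0.000514, Cy3 alone 4.99). Myod1 differed by 2.93 (SE 0.27) and Eya1, a cofactor of homeodomain proteins, by 3.06 (SE 0.33). The satellite cell factor Myf5 was above background on no array of either group, and Tead1 was not called (0.11, SE 0.32). For Myf6 and Myog, white adipose arrays 1 and 3 lay between array 2 and muscle, and with slide as a term 4 of the 20 were called.

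In the dystrophin complex and costamere, 11 of 21 genes were higher in muscle and 0 higher in white adipose tissue (median 1.40). An unadjusted limma p under 0.05 was reached by 1 gene higher in white adipose tissue. Popdc3, a cAMP-binding membrane protein, read 2.51, 2.39 and 2.68 against 0.01, -1.99 and -0.83 (3.46, SE 0.39, adjusted p = 1.21e-06), and Capn3, the protease of limb-girdle dystrophy, differed by 2.90 (SE 0.48), or 3.06 by Cy3 alone, while another Capn3 probe differed by 0.17. The epsilon-sarcoglycan gene Sgce, which many tissues make, was at 0.11 (SE 0.27) and Dtnb at 0.22 (SE 0.14), neither called. Of the 21, 0 were called with slide as a term and 7 on Agilent's log ratios, which left out Capn3.

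Glycogen breakdown, glycolysis and phosphagen enzymes differed in both directions: 21 of 35 were higher in muscle and 3 higher in white adipose tissue (median 1.31). Eno3, muscle enolase, read 5.54, 5.75 and 5.63 in muscle and 3.97, -1.13 and 2.48 in white adipose tissue (3.87, SE 0.80, adjusted p = 0.00103). Fbp2, the fructose bisphosphatase of muscle, differed by 3.42 (SE 0.41) and Pgam2, muscle phosphoglycerate mutase, by 3.29 (SE 0.81), or 5.14 by Cy3 alone. Pgam2 was not called with the arrays paired (adjusted p = 0.0553), nor Fbp2 on Agilent's log ratios (0.09).

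The 3 genes in the other direction were regulators and a branching enzyme. Pfkfb3, which makes the activator of phosphofructokinase, read 0.53, -0.33 and -0.23 in muscle and 3.75, 4.63 and 2.73 in white adipose tissue (-3.71, SE 0.49, adjusted p = 7.20e-06). Pfkfb1, of the same family, differed by -2.46 (SE 0.21) and Gbe1, the glycogen branching enzyme, by -1.07 (SE 0.31). Gbe1 was not called without muscle array 2 (-0.84, adjusted p = 0.0853) or white adipose array 3 (-0.78, 0.097). Hexokinase Hk1 (0.16, SE 0.17) and glycogenin, Gyg (-0.18, SE 0.17), were not called. In muscle and in white adipose tissue, 2 and 0 genes were called with slide as a term and 15 and 2 on Agilent's log ratios.

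Of 79 subunits of the respiratory chain and ATP synthase, 4 were higher in muscle and 1 higher in white adipose tissue, shares of 5.06% and 1.27% that lie below the 6.69% and 5.45% of all genes. Their median was 0.29, and 56 of the 79 differences were above 0 against 48.2% of all genes. The exception in size was Cox6a2, the striated muscle form of a cytochrome oxidase subunit, which read 4.65, 4.78 and 4.73 in muscle and 2.64, -2.21 and 1.11 in white adipose tissue (4.21, SE 0.88, adjusted p = 0.00112). Its counterpart Cox6a1 was the 1 subunit higher in white adipose tissue, at 0.05, -0.04 and -0.30 against 1.71, 1.97 and 1.79 (-1.92, SE 0.28, adjusted p = 3.73e-05). Without white adipose array 1 the count in muscle was 8, without arrays 1 and 3 it was 7, and with slide as a term 0.

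Of 24 genes of the citric acid cycle, its entry and its aminotransferases, 5 were higher in muscle and 0 higher in white adipose tissue (median 0.17). At an unadjusted limma p under 0.05, 10 were higher in muscle and 3 in white adipose tissue. Got1 and Got2, the aspartate aminotransferases of cytosol and mitochondria, differed by 2.36 (SE 0.37) and 2.20 (SE 0.30), and Pdk4, which switches off pyruvate dehydrogenase, by 2.16 (SE 0.34). The cycle enzymes Ogdh (0.03, SE 0.26) and Mdh2 (-0.05, SE 0.31) were not called, and with slide as a term 3 of the 24 were.

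Genes of fatty acid oxidation split: 6 of 33 were higher in muscle and 5 higher in white adipose tissue (median -0.24). Fabp3, the fatty acid binding protein of muscle, read 3.89, 3.81 and 3.98 in muscle, 0.82, -2.57 and -0.33 in white adipose tissue and 3.31, 3.29 and 2.43 in brown adipose tissue, a muscle to white adipose difference of 4.58 (SE 0.63, adjusted p = 1.18e-05). Cpt1b, the carnitine transferase of muscle mitochondria, differed by 2.78 (SE 0.34). In the other direction, Acsl1, the acyl-CoA synthetase of fat and liver, differed by -3.31 (SE 0.28), Slc27a1, a fatty acid transporter, by -2.96 (SE 0.37) and Cd36 by -1.88 (SE 0.38). The enzymes of the beta-oxidation spiral Eci2 (-0.03, SE 0.17) and Acads (-0.02, SE 0.37) were not called. The muscle count was 2 by Cy3 alone, 3 on Agilent's log ratios and 0 with slide as a term, which left 3 genes called in white adipose tissue.

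The exchange of Cox6a1 for Cox6a2 was 1 of 28 pairs of a striated muscle form and another form of the same protein. In 23 pairs the muscle form was higher in muscle, and in 7 the other form was higher in white adipose tissue, beside 6.69% and 5.45% of all genes. Muscle forms such as Actn3, Eno3, Cox6a2 and Fabp3 are also members of the lists above. With slide as a term, 0 fast isoforms, 2 glycogen and glycolysis genes, 0 respiratory subunits and 0 fatty acid oxidation genes were called in muscle. Both held in 6 pairs, and no pair was called in the reverse sense. The other form was not called in 21 pairs. Besides Cox6a2 and Cox6a1 the opposed pairs were Pygm (2.19, Cy3 alone 3.43) and Pygl (-3.25), the muscle and liver glycogen phosphorylases (another Pygl probe differed by 0.02), Acsl6 (at least 2.12-fold, with white adipose tissue above background on no array) and Acsl1 (-3.31), Pfkm (2.72) and Pfkl (-1.18), the phosphofructokinases, Pgam2 (3.29) and Pgam1 (-1.50), and Cav3 (1.48, Cy3 alone 5.28) and Cav1 (-1.71), the caveolins. Acsl6 was above background on 2 muscle arrays, and its Cy3-alone difference of 0.62 fell short of the size required for a call.

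The muscle form was not called in 5 pairs: Acta1, Ckm, Cox8b, Plin5 and Acacb. In the last, the other form Acaca, cytosolic acetyl-CoA carboxylase, was higher in white adipose tissue (-2.71, SE 0.23). With the arrays paired, Pygm (adjusted p = 0.0698), Cav3 (0.169), Ampd1 (0.129), Fitm1 (0.112), Ckmt2 (0.131), Mylk2 (0.0621) and Cox7a1 (0.0581) were no longer called, while Actb and Fabp4 passed on the white adipose side (adjusted p = 0.00575 and 0.00699). The Actb probe lies at chrX:148868817-148868876 and was assigned to the gene by name alone, so its values may not be those of Actb. Without white adipose array 2, Pygm, Cav3, Ampd1, Fitm1, Ckmt2 and Aldoa were not called, and without array 3 Cox7a1 was not.

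**Figure D4:**
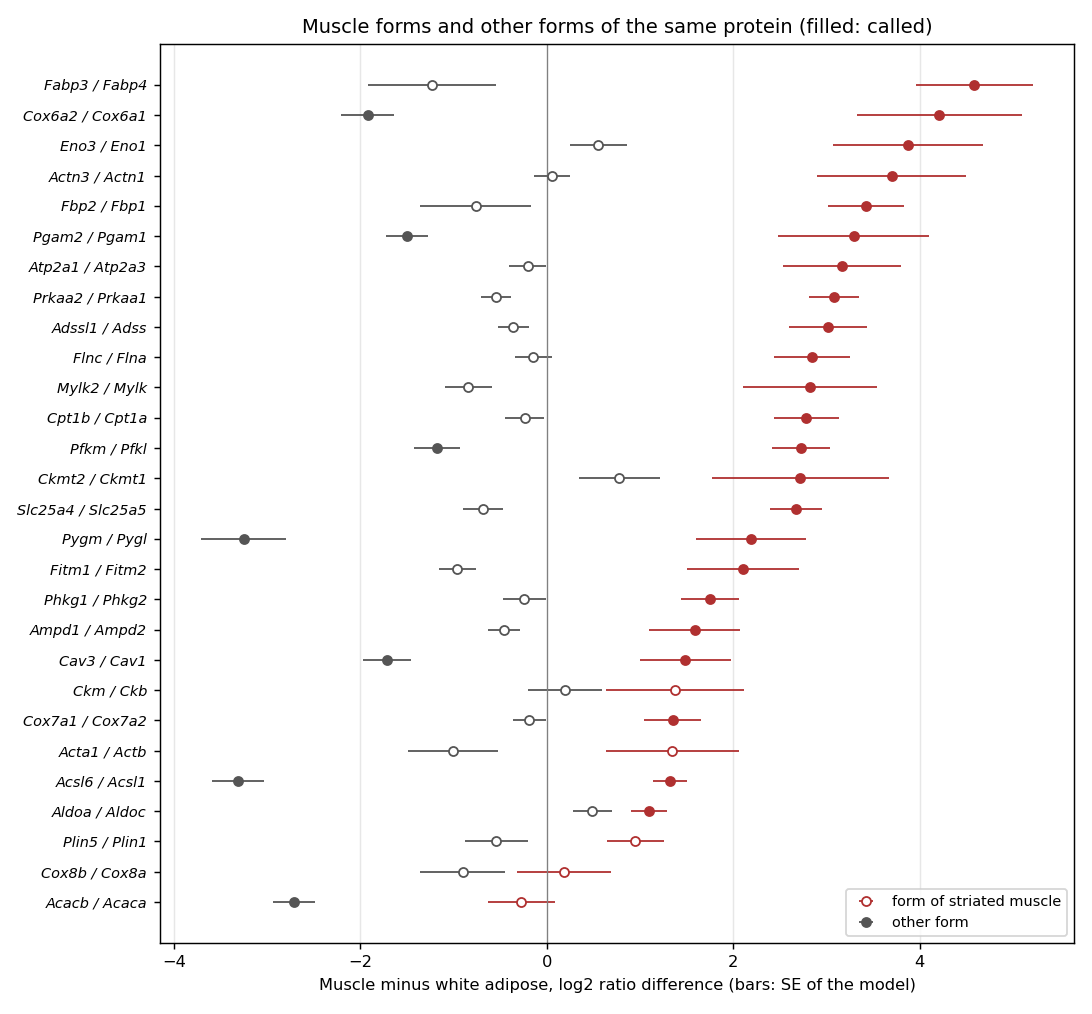
Log2 difference between muscle and white adipose tissue for 28 pairs of a striated muscle form (red) and another form of the protein (grey), with the standard error of the model as bars and called genes filled. The red points of 23 pairs are called on the muscle side, and 7 grey points are called on the white adipose side.

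On the white adipose side, 8 of 15 white adipocyte markers were called and 0 were higher in muscle, with a median of -1.37 by ratio and -3.64 by Cy3 alone, by which 13 were called. Pparg, the master regulator of adipocytes, read 1.50, 0.26 and 0.75 in muscle and 3.86, 4.08 and 3.89 in white adipose tissue (-3.11, SE 0.26, adjusted p = 3.19e-08). Lpl, lipoprotein lipase, differed by -3.14 (SE 0.43). Cidec, a droplet protein, read 7.18, 5.80 and 5.74 against 8.17, 8.43 and 8.03 (-1.97, SE 0.38, adjusted p = 0.00057) and differed by -5.61 by Cy3 alone. Plin1, perilipin, was not called by ratio (-0.54, SE 0.34, adjusted p = 0.283) but differed by -5.48 by Cy3 alone (adjusted p = 2.08e-08). Npr3 (-0.18, SE 0.25) and Car3 (-0.48, SE 0.28) were not called. The reference signal differed by at least 1 at 8 of the 15 probes. The slide term left 2 markers called, and Cidec was not called on Agilent's log ratios (-1.19, adjusted p = 0.399).

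The promoters of Lep and Plin1 are shown as those of an adipocyte hormone and a droplet protein that hold the C/EBP site TTNNGCAA, a motif of adipocyte factors, in capitals on either strand. They are the 250 bases before the RefSeq start on GRCm38.p6, Lep at chr6:29059971-29060220 on the plus strand and Plin1 at chr7:79732777-79733026 on the minus strand.
Lep: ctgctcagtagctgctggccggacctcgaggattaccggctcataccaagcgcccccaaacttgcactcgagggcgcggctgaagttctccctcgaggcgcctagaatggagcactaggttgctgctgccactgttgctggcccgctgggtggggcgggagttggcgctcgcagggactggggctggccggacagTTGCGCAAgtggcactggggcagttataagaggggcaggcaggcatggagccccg
Plin1: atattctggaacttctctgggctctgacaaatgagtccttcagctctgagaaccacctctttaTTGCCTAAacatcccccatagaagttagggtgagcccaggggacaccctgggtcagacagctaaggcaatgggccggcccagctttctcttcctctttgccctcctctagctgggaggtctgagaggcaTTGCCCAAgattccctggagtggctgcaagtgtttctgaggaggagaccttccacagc
The site begins 55 bases before the start in Lep, and 187 and 58 bases before it in Plin1. It was found in 9.56% of 32851 promoters, in 4 of the 12 white adipocyte markers matched to the table and in 2 of the 23 lipid droplet genes matched. The last share, 8.70%, is close to that of all promoters.

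Lipid droplet and lipolysis genes were higher in white adipose tissue in 16 of 27 cases and in muscle in 1 (median -1.30). Prkar2b, the regulatory subunit of protein kinase A in fat, read -0.50, -1.40 and -1.20 in muscle and 2.57, 2.57 and 2.94 in white adipose tissue (-3.73, SE 0.25, adjusted p = 2.95e-09). Pnpla3, a lipase of the droplet surface, read 1.12, 0.02 and 1.22 against 4.17, 3.91 and 5.27 (-3.66, SE 0.46), and Hcar2, the nicotinic acid receptor that restrains lipolysis, 1.68, -0.07 and 0.95 against 4.60, 4.78 and 4.10 (-3.64, SE 0.55). The 1 droplet gene higher in muscle was Fitm1, a fat storage protein of muscle (2.10, SE 0.60, adjusted p = 0.0129, Cy3 alone 5.05). It was called neither without white adipose array 2 (0.95, adjusted p = 0.0588) nor with the arrays paired. Cideb was above background on no array of either group. With slide as a term 5 genes were called in white adipose tissue.

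Of 23 genes of triglyceride synthesis and lipid uptake, 10 were higher in white adipose tissue and 0 in muscle (median -1.23), and 9 held with slide as a term. An unadjusted limma p under 0.05 was reached by 1 gene higher in muscle. Dgat1, which joins the last acyl chain to make triglyceride, read 0.87, 0.21 and 0.33 against 3.36, 3.51 and 3.38 (-2.94, SE 0.16, adjusted p = 1.43e-10). Acsl1 read 3.96, 3.18 and 3.53 against 6.70, 6.88 and 7.04, and Lpl was given above. Glycerol kinase, Gk, was at 0.03 (SE 0.17), and Fabp5 was above background on no array of either group.

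Fatty acid synthesis makes new fat from citrate that leaves the mitochondria. Of 24 genes of the pathway, 16 were higher in white adipose tissue and 0 in muscle, 66.7% against 5.45% of all genes, with a median of -1.67 by ratio and -1.71 by Cy3 alone. No probe of the list had a reference signal that differed by 1. Slc25a1, which exports citrate from mitochondria, read -0.91, -1.96 and -1.54 in muscle and 1.98, 2.15 and 2.27 in white adipose tissue (-3.60, SE 0.26, adjusted p = 3.52e-09). Fasn, fatty acid synthase, read -0.25, -0.49 and -0.43 against 2.72, 2.78 and 3.34 (-3.34, SE 0.46, adjusted p = 1.44e-05), and Acaca, which commits acetyl-CoA to synthesis, differed by -2.71 (SE 0.23). Srebf1, the transcription factor of this pathway, differed by -2.36 (SE 0.33). The elongase Elovl1 (-0.11, SE 0.36) and the acetyl-CoA synthetase Acss2 (-0.18, SE 0.38) were not called.

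For Fasn, Slc25a1, Pcx and Srebf1 all 3 white adipose arrays were high and all 3 muscle arrays low, with no white adipose array apart. The count was 13 without white adipose arrays 1 and 3, 13 on Agilent's log ratios and 11 with slide as a term. Brown adipose tissue read 1.39, 1.43 and 1.86 for Fasn and 2.89, 2.88 and 2.37 for Scd1, between the other tissues.

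**Figure D5:**
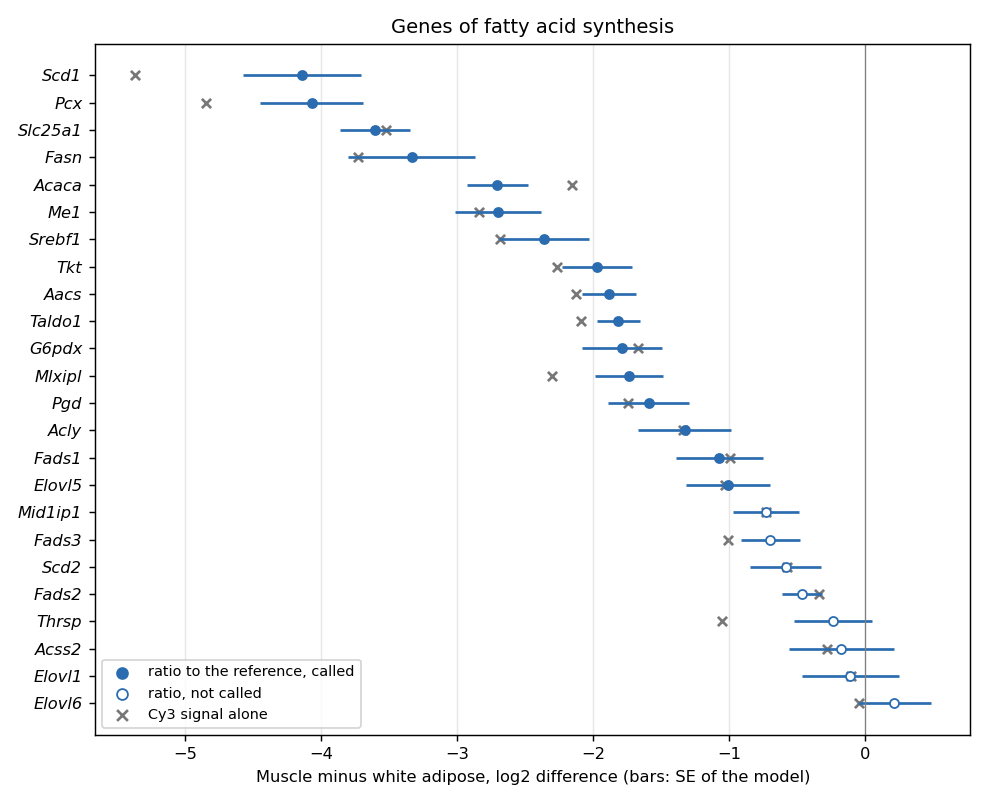
Log2 difference between muscle and white adipose tissue for the 24 genes of fatty acid synthesis, by ratio to the reference (circles with the standard error of the model, filled where called) and by Cy3 signal alone (crosses). From Scd1 at -4.14 down to Elovl5 at -1.01, 16 genes are called, and the crosses lie close to the circles for most of the list.

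Adipogenic transcription factors were higher in white adipose tissue in 5 of 19 genes and in muscle in 1 (median -0.75). Cebpa read 2.75, 0.80 and 2.04 in muscle and 5.35, 5.31 and 4.71 in white adipose tissue (-3.26, SE 0.50, adjusted p = 4.12e-05), and Nr1h3, the oxysterol receptor LXR alpha, differed by -2.60 (SE 0.46), or -3.41 by Cy3 alone. Klf5 was the 1 gene higher in muscle (1.03, SE 0.25), and it fell below the size required without white adipose array 2 (0.93) or 3 (0.92). Nr3c1, the glucocorticoid receptor (-0.02, SE 0.18), and Stat5a (-0.02, SE 0.22) were not called. None of the 19 was called with slide as a term.

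Of 23 adipokines, 8 were higher in white adipose tissue and 0 in muscle (median -0.71), with 4 called with slide as a term. Orm1, orosomucoid, read 0.97, -0.13 and 0.11 in muscle and 4.03, 3.99 and 3.86 in white adipose tissue (-3.64, SE 0.25, adjusted p = 2.36e-09), and Nrg4, a growth factor secreted by fat, 1.04, -0.36 and -0.21 against 3.76, 3.88 and 3.40 (-3.52, SE 0.29, adjusted p = 2.33e-08). Rbp4, the retinol carrier, differed by -1.92 (SE 0.65, adjusted p = 0.035), a call that was lost without any 1 of the 6 arrays, at -1.73 to -2.10. Apln (-0.20, SE 0.22) and Sfrp5 (0.06, SE 0.15) were not called.

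Insulin and energy-sensing genes lay on both sides, with 5 of 19 higher in muscle and 4 higher in white adipose tissue (median 0.23). Prkaa2, the catalytic subunit of AMP kinase in muscle, read 3.72, 3.19 and 4.12 in muscle and 1.34, 0.04 and 0.42 in white adipose tissue (3.08, SE 0.27, adjusted p = 4.17e-08). Prkag3, the gamma subunit of fast fibres, was at least 3.67-fold higher, and Grb14, an adaptor of the insulin receptor, differed by 2.05 (SE 0.22). Trarg1, a regulator of glucose transporter traffic in fat, differed by -2.25 (SE 0.26), or -3.88 by Cy3 alone, and Tbc1d4, the insulin-regulated traffic protein, by -1.45 (SE 0.14). Insr, the insulin receptor (0.05, SE 0.21), and Ptpn1 (0.07, SE 0.25) were not called, nor was Slc2a4, the insulin-responsive glucose transporter, at 6.34, 6.27 and 6.47 against 6.29, 6.09 and 6.00 (0.23, SE 0.26). By Cy3 alone Prkag3 was not called (adjusted p = 0.188). On Agilent's log ratios 2 genes were called on each side, without Prkag3, Trarg1 and Tbc1d4, and with slide as a term 3 and 0.

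Among myokines and growth regulators, 3 of 17 were higher in muscle and 2 higher in white adipose tissue (median -0.02). Mstn, myostatin, which limits fibre growth, read 6.32, 6.07 and 6.43 in muscle and 5.01, 0.15 and 2.18 in white adipose tissue (3.83, SE 0.71, adjusted p = 0.000351). Fndc5, the precursor of irisin, differed by 2.43 (SE 0.45), or 3.76 by Cy3 alone, and Ostn, musclin, was at least 3.58-fold higher. Ghr, the growth hormone receptor, and Igf1, its target, were higher in white adipose tissue, with differences of -1.93 (SE 0.17) and -1.67 (SE 0.31), although another Igf1 probe differed by 0.48. Sparc (-0.02, SE 0.31) was not called and Gdf11 was above background on no array of either group. Fndc5 was not called on Agilent's log ratios (0.0937), and with slide as a term 0 and 2 genes were called.

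Of 17 genes of muscle protein breakdown, 7 were higher in muscle and 1 higher in white adipose tissue (median 0.55). Trim63, the ubiquitin ligase MuRF1, read 4.40, 4.21 and 4.53 against 3.02, -0.52 and 0.72 (3.31, SE 0.63, adjusted p = 0.000462). Asb2 differed by 3.21 (SE 0.57) and the protease Usp2 by 3.09 (SE 0.38). With slide as a term 2 genes were called in muscle. Bnip3, which directs mitochondria to autophagy, was the 1 gene higher in white adipose tissue (-2.09, SE 0.22). Trim55 (0.04, SE 0.23) and Foxo3 (-0.03, SE 0.17) were not called.

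Among genes that keep a record of position in the body, 8 of 26 were called higher in muscle and 0 in white adipose tissue (median 0.01). The differences lay above 0 for 13 and below 0 for 13. At an unadjusted limma p under 0.05, 11 were higher in muscle and 4 in white adipose tissue. Pitx1, which specifies the hindlimb, read 3.88, 3.99 and 3.49 in muscle and 1.30, 1.00 and 1.25 in white adipose tissue (2.60, SE 0.24, adjusted p = 9.63e-08). Hoxa11, a gene of the distal limb, read 0.09, 0.39 and -0.32 against -2.88, -2.07 and -2.46, with no white adipose array above background, and was at least 4.27-fold higher (adjusted p = 6.05e-09). Tbx4 was above background on no array of either group, and Hoxd9 was not called (0.06, SE 0.24). With slide as a term 3 genes were called, and 2 were called in white adipose tissue without its arrays 1 and 3.

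Genes of the skeletal matrix were among the largest differences. After these values were seen, 32 genes of bone, cartilage and tendon were gathered, so their count is a description: 29 were higher in muscle and 0 higher in white adipose tissue, beside 6.69% of all genes, with a median of 3.15 by ratio and 2.41 by Cy3 alone. The median was 2.91 with the 13 called members that no white adipose array detected set at their bounds. The mean ratio of the 32 was 2.53, 2.86 and 3.00 on the muscle arrays, -0.26, -0.28 and -0.42 on the white adipose arrays and -0.58, -0.71 and -0.82 on the brown adipose arrays. Of the 32, 31 were above background on all 3 muscle arrays, and 13 on all 3 white adipose arrays.

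Within this group, Col2a1, the collagen of cartilage, read 4.72, 5.04 and 4.95 in muscle and 0.42, 0.11 and 0.22 in white adipose tissue (4.66, SE 0.27, adjusted p = 2.67e-10), and differed by 6.36 by Cy3 alone. Another Col2a1 probe differed by 0.70. Acan, the aggregating proteoglycan of cartilage, differed by 3.70 (SE 0.27), or 4.38 by Cy3 alone. Bglap, osteocalcin of osteoblasts, was above background on no white adipose array and at least 13.9-fold higher in muscle (adjusted p = 7.23e-10). Scx, the transcription factor of tendon, read 1.52, 1.85 and 1.81 against -1.88, -3.49 and -2.37 (4.31, SE 0.40, adjusted p = 7.74e-08).

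Muscle array 1 was the lowest muscle array for the group mean, while for Bglap array 3 was the lowest. Of the 3 not called, Sox9, a transcription factor of cartilage, differed by 0.88 (SE 0.21) and Acp5, an enzyme of osteoclasts, by -0.99 (SE 0.45). Between 27 and 29 of the 32 were called without each array in turn, and 25 with slide as a term. Whether the muscle samples held skeletal tissue beside fibres was not tested.

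Macrophage, stromal and collagen genes that passed the test were higher in white adipose tissue. Of 17 macrophage markers, 6 were higher in white adipose tissue and all 17 differences lay below 0 (median -0.95). Clec10a, a lectin of tissue macrophages, read 3.47, 2.76 and 2.66 in muscle and 5.54, 5.31 and 5.28 in white adipose tissue (-2.41, SE 0.46, adjusted p = 0.000443). The macrophage count was 3 without muscle array 3, 4 without white adipose array 3, 1 without white adipose arrays 1 and 3, 1 on Agilent's log ratios and 3 with slide as a term. Itgam (-0.27, SE 0.21) and Mpeg1 (-0.27, SE 0.35) were not called.

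Of 18 adipose stromal and fibroblast markers, 4 were higher in white adipose tissue and 0 in muscle (median -0.59), with 2 called without white adipose array 3, 0 without arrays 1 and 3 and 1 by Cy3 alone. Of 30 collagen and basement membrane genes, 5 were higher in white adipose tissue and 0 in muscle (median -0.26), and 2 without white adipose array 3. In muscle 1 of the 30 was higher at an unadjusted limma p under 0.05. Timp4, a metalloproteinase inhibitor, was the largest (-2.04, SE 0.19, adjusted p = 7.83e-08). The fibrillar collagen genes Col1a1 (0.10, SE 0.28) and Col5a1 (-0.01, SE 0.19) were not called, although another Col5a1 probe differed by -1.11. The slide term left none of either list called.

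Of 17 endothelial markers 1 was called in each direction, 5.88% beside 6.69% and 5.45% of all genes. Prox1 was higher in muscle (2.00, SE 0.32, adjusted p = 6.74e-05) and Lyve1 was higher in white adipose tissue (-1.82, SE 0.56, adjusted p = 0.0198), and Robo4 (-0.23, SE 0.85) and Cldn5 (-0.19, SE 0.57) were not called. Prox1 was not called on Agilent's log ratios (0.107), and the Lyve1 call was lost without any 1 of muscle arrays 2 and 3 and white adipose arrays 1 and 2, and with normexp on all spots Lyve1 read 0.39, in the other direction. Brown adipocyte markers were called on both sides, 4 of 13 in muscle and 3 in white adipose tissue, against 2 and 2 by Cy3 alone and 1 and 1 with slide as a term. Dio2, the deiodinase that activates thyroid hormone, was higher in muscle (2.86, SE 0.22), and Kcnk3 (-3.19, SE 0.26, Cy3 alone -3.09) and Lhx8 (-2.37, SE 0.20) higher in white adipose tissue, where Ucp1 varied most between the arrays. By limma, 0 of 14 lymphocyte, 6 red blood cell, 14 pancreatic acinar and 4 epididymal markers and of 16 immediate early genes were called in either direction, against 12.1% of all genes. Above background on any muscle and on any white adipose array were 8 and 6 lymphocyte and 5 and 4 red blood cell markers. The same counts were 7 and 12 for acinar markers, 1 and 0 for epididymal markers and 16 and 15 for immediate early genes. A gene that neither group detected could hardly be called, so its lack of a call says little. At an unadjusted p under 0.05, 2 lymphocyte markers and 1 acinar marker were higher in white adipose tissue, 1 red blood cell marker was higher in muscle, and no epididymal marker or immediate early gene passed. With the arrays paired, 2 immediate early genes were called in muscle and 1 acinar marker in white adipose tissue, and with slide as a term 3 acinar markers were called in white adipose tissue. On Agilent's log ratios 1 lymphocyte marker was called in white adipose tissue and 1 acinar marker in each direction. A red blood cell marker was called in white adipose tissue by Cy3 alone, and 1 in muscle without muscle array 1. With normexp on all spots, 3 lymphocyte markers were called in white adipose tissue, and 2 red blood cell markers and 1 acinar marker in muscle.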

How the data were processed

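RNA of 28 mouse samples in 13 groups was hybridized to 2-colour Agilent arrays, sample in Cy3 and reference in Cy5. The deposited intensity values are median spot and local background brightness on a linear scale, extracted per the file headers with Agilent Feature Extraction 10.5.1.1, while the submitters' processing notes name 8.5.1.1. The authors' deposited log10 ratio of Cy5 over Cy3, the same in the series table and the scanner files, was used with its sign turned as an alternative. Probe positions are mm9, per the file headers. No spot was flagged as saturated in Cy3 on any array.

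Limma 3.58.1 under R 4.3.3 corrected the background by normexp (offset 50), and ratios were normalized by loess within each array, with 1639 control spots left out after the correction and outlier flags removed. Spots whose local background was flagged as an outlier (51 on white adipose array 1 and 75 on array 2) were left out of the normexp fit, a choice made after seeing the data: with them the background SD of white adipose array 2 in Cy3 was 853 in place of 8.39. A gene was the probe with the highest mean Cy3 over all 28 arrays, among those well above background on at least 2 of the 28. This filter spans all 13 groups, so genes detected in neither muscle nor white adipose tissue were also tested. It left 31112 probes and 21070 genes, of which 16809 were named through RefSeq and 4261 by the file's name. The fit held 1 mean for each of 13 groups over all 28 arrays (lmFit, eBayes). The number of arrays limits the precision. On data simulated for this comparison, with 200 of 21070 genes changed, changes of 1, 2 and 3 log2 units were recovered in 46.3%, 98.5% and 100% of cases, beside 5 false calls. A call needs an estimated difference of at least 1, so the share at a change of 1 reflects that cutoff and does not measure the precision.

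The labels give both groups the numbers 1 to 3 and do not say what same-numbered arrays share. Their deviations from the group means correlated at 0.19, 0.10 and 0.26, so a fit with number as a block is given where it changes a call.

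The comparison and its lists were chosen with earlier results of these data known. The text names the 10 largest non-overlapping differences each way, the 3 largest called members each way and the 2 uncalled members nearest to 0 of each list, the marker genes, the isoform pairs, and the genes that vary most within a group or are most like Acta1 and Adipoq. Named outside that rule, after their values were seen, were Fasn, Srebf1, Myod1, Myh3, Myh8, Myh7, Chrnd, Chrne, Col2a1, Bglap, Acan, Scx, Acp5, Ryr1, Slc2a4, Cidec, Ttn, Elovl5, Gata4, Nppb, Myl4 and Myl7. Some results that the rule selects are not reported here. RefSeq promoters are on GRCm38.p6. Alternatives were the normalization, the filter, the probe rule, the arrays fitted, slide and scan day as blocks, array weights, the fold minimum and each array left out, and, added after seeing the data, normexp on all spots, Cy3 alone after quantile normalization, and white adipose arrays 1 and 3 left out.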

Additional observations from a re-analysis of the deposited data

How the results depend on the processing

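The count of 2558 called genes, with 1410 higher in muscle and 1148 higher in white adipose tissue, was within 1.5 times under all alternatives but 4. It was 778 (371 and 407) with slide as a term, 754 (492 and 262, or 65.3% higher in muscle) with a log2 minimum of 2, 5342 (2751 and 2591) with no fold minimum, and 866 (519 and 347) with limma's treat against a difference of 1. Leaving out each array in turn gave 2418 to 2663 genes, 1312 to 1482 higher in muscle and 1042 to 1199 higher in white adipose tissue. Ratios from normexp on all spots called 2657 genes, of which 1995 were called the same way before, and 36 called genes changed sign. There Lyve1 read 0.39 and Col15a1 0.25, against differences below 0 with the flagged spots left out. Scaling Cy3 to each array's 75th percentile moved the median of all genes to -0.22. With the replicate number as a block, 2525 genes were called (1357 and 1168), and the replicate block changed no call of a named gene other than those given above and those of Col10a1 (adjusted p = 0.0625), Atp1b4 (0.057), Rab7b (0.00354) and Wtap (0.0269), the last 2 gained. Among the genes that the naming rule selects or the text adds, 98 lost their call with slide as a term, 40 on Agilent's log ratios and 16 by Cy3 alone after quantile normalization, where 20 gained it. Unless a value above shows it, the cause of a change was not tested. A signal not well above background gives only a bound.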

Other observations

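Some genes varied more within a tissue than between the tissues. On the muscle arrays the widest ranges were those of Ifi202b, an interferon-inducible gene, at -7.05, -3.76 and -3.32, and of Tpsab1, a tryptase of mast cells, at 1.41, 0.51 and 4.13 in muscle and 1.24, 2.59 and 4.24 in white adipose tissue. Rab7b read 0.66, -0.13 and -2.29 against 1.90, 1.51 and -0.96, and Wtap, a subunit of the RNA methylation complex, -1.63, -2.07 and 0.81 against -0.91, -0.43 and 1.55. The third array was the highest of its group for Tpsab1 and Wtap and the lowest for Rab7b in both tissues. Col10a1, the collagen of growth-plate cartilage, read 1.13, 0.57 and 3.30 in muscle, with array 3 the highest.

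On the white adipose arrays the widest ranges belonged to genes of muscle. Atp1b4, a muscle member of the sodium pump family, read 7.46, 0.68 and 5.61, Myot 6.84, 0.79 and 5.46, Tceal7 6.41, 0.82 and 4.08 and Ckmt2, the mitochondrial creatine kinase of muscle, 5.92, 0.40 and 4.92, with array 2 the lowest in each. Ucp1 read 5.74, 3.03 and 0.31, in another order. The mean ratio of 14 pancreatic acinar markers was 1.60, 0.22 and 0.57 on the white adipose arrays, 0.48, 0.23 and 0.31 on the muscle arrays and 4.27, 0.33 and 0.52 on the brown adipose arrays, so that white adipose array 1 and brown adipose array 1 were the highest of their groups.

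Over the means of all 13 groups, the genes most like Acta1 by Pearson's r were Myl1 (0.995), Myom2 (0.988), Myl3 (0.987), Mylpf (0.981) and Tnnt3 (0.980), which all encode sarcomere proteins. Most like Adipoq were Plin1 (0.987), Retn, the gene of resistin (0.986), Cpa3 (0.985) and Cma1 (0.985), proteases of mast cells, and Sln, the calcium pump regulator sarcolipin (0.983). These correlations are over 13 groups that share the reference RNA and the array design. They are of ratios, on which Adipoq averaged 5.63 in muscle and 6.34 in white adipose tissue, against a Cy3-alone difference of -4.85. Muscle and white adipose tissue lie close on this scale, so likeness to Adipoq hardly depends on which of them a gene favours.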
